A study of Mus musculus with 4 samples.

Results

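The 10 genes described here, Cd74, H2-Aa, H2-Ab1, H2-Eb1, H2-D1, H2-K1, B2m, Tap1, Ciita and Psmb8, encode the core of MHC class I and class II antigen presentation, and they were measured in developing mammary epithelium and mesenchyme of the mouse. They were found by symbol among the 32285 genes listed at E13.5, E14.5 and P0 and the 31053 listed at E15.5, and all 10 are listed at every stage. The set was selected with earlier results of the same counts in view, in which Cd74 led a group of E15.5 epithelial cells, so the level of Cd74 at E15.5 is a description. Of the 10 genes, 7 had at least 1 UMI (unique molecular identifier, a transcript counted once) in epithelial cells of the earliest stage, 7, 8 and 9 in those of the next 3, and 8, 4, 9 and 7 in mesenchymal cells.

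MHC class I molecules sit on nearly every nucleated cell of an adult mouse and display peptides from inside the cell to CD8 T cells. A class I molecule is a heavy chain, here H2-K1 or H2-D1, paired with beta-2-microglobulin, the product of B2m. Its peptides are cut by the proteasome, whose interferon-inducible form contains Psmb8, and are carried into the endoplasmic reticulum by a transporter of which Tap1 is a subunit. MHC class II molecules are normally made by dendritic cells, macrophages, B cells and thymic epithelium, and display peptides from endosomes to CD4 T cells. They are pairs of an alpha chain such as H2-Aa and a beta chain such as H2-Ab1 or H2-Eb1. Cd74, the invariant chain, escorts these pairs to the endosome and keeps their groove closed, and it also acts at the cell surface as a receptor for the cytokine Mif. Ciita is the coactivator that switches on the class II genes and Cd74 together, through the X and Y boxes of their promoters. Class I promoters carry a kappaB element and an interferon element and are raised by NF-kappaB, interferons and the regulator Nlrc5. Background knowledge therefore pairs Cd74 with the class II chains and Ciita, and pairs H2-D1 and H2-K1 with B2m.

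The promoters of the chains whose levels are compared below are shown so that the shared elements of class I and class II genes can be seen. Each sequence is the 250 bases before the RefSeq transcription start on GRCm38.p6, written 5′ to 3′ on the strand of the gene, with every match to a searched motif in capitals. The motifs were the X box core AGNAACNGA, the Y box core ATTGG, an interferon element core GAAANNGAA and a kappaB core GGGGANTCC, searched on both strands, so that a Y box core on the other strand reads CCAAT. The H2-Eb1 window is chr17:34305617-34305866 on the plus strand, that of H2-Aa chr17:34287824-34288073 on the minus strand, and that of B2m chr2:122147437-122147686 on the plus strand. The H2-D1 window is chr17:35262844-35263093 on the plus strand, and that of H2-K1, the first of 2 starts listed, chr17:34000348-34000597 on the minus strand.
H2-Eb1: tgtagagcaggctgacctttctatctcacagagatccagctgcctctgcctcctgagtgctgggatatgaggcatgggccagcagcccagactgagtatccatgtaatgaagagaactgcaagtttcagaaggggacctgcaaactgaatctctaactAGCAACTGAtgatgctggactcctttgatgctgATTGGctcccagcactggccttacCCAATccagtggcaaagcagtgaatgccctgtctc
H2-Aa: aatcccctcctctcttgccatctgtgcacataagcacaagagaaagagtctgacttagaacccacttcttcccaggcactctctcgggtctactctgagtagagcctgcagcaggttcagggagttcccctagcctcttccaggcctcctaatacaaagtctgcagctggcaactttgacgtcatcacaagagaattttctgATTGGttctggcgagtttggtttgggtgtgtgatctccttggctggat
H2-D1: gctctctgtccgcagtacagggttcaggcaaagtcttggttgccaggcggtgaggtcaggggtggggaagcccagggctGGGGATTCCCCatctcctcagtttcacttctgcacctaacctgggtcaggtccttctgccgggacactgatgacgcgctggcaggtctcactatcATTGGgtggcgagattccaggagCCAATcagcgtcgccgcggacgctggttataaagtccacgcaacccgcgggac
H2-K1: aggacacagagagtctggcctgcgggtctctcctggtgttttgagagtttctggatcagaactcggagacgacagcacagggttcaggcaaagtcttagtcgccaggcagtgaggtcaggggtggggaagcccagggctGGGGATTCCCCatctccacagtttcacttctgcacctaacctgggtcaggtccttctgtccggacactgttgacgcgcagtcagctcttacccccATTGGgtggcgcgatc
B2m: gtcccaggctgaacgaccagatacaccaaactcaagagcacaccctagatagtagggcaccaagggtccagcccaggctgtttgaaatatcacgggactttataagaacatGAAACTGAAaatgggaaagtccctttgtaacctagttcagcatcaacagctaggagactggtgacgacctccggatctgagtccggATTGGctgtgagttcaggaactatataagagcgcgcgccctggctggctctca

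Windows were found for 7 of the 10 genes, which leaves out Cd74, H2-Ab1 and Ciita. The H2-Eb1 window held the X box core AGCAACTGA at 92 to 84 bases before the start, with a Y box core at 59 to 55 bases and another on the other strand at 35 to 31 bases. H2-Aa held a Y box core at 48 to 44 bases and no match to the X box core. The heavy chain genes H2-D1 and H2-K1 both held overlapping matches to the kappaB core on the 2 strands, at 171 to 161 bases before the H2-D1 start and at 111 to 101 bases before the H2-K1 start. B2m held an interferon element core, GAAACTGAA, at 139 to 131 bases and a Y box core at 53 to 49 bases. The Tap1 window held a Y box core at 222 to 218 bases and the Psmb8 window held no match. Among all 32851 windows of this length, 4.42% held the X box core, 33.8% the Y box core, 7.13% the interferon element core, 1.04% the kappaB core, and 1.47% both the X and the Y box core. A match is a string of letters and does not show that a factor binds there. A missing match, as for the interferon element core in H2-D1 and H2-K1, does not show that the element is absent. Only the spellings given above were searched. The RefSeq starts of H2-D1 and Psmb8 lie inside the genes as GENCODE draws them.

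The cells came from WT C57B6 female mice (C57 B6/N in the methods) at E13.5 (invaginating mammary bud), E14.5 and E15.5 (first sprouting) and P0 (the day of birth), with no treatment and no transgene. Each stage is a single library made from tissue pooled over several animals, so stage and library cannot be told apart and the animals are not separate. Cells were sorted on EpCAM, a surface protein of epithelium, in both its positive and negative fractions, after cells carrying CD45, CD31 or Ter119 (leukocytes, endothelium and red cells) had been gated out. The P0 tissue was digested with other enzyme doses and had a red cell lysis step, and the E15.5 table came from another version of the counting software with a shorter gene list, so that no difference with P0 or with E15.5 can be told apart from these steps. The authors removed contaminating skin cells by clustering, whereas the classes used here keep them. The paper counted fewer mammary epithelial cells at every stage than are called epithelial here, by the largest factor at E13.5. Most of the E13.5 epithelial class may therefore not be mammary, and its make-up was not tested.

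The cell filter asked for 5000 or more UMIs with no more than 6% of them mitochondrial, and kept 1630 cells, of which 816 came from E15.5, 503 from P0, 235 from E13.5 and 76 from E14.5. A cell was called epithelial when its summed UMIs of Epcam, Krt8, Krt18, Krt5 and Krt14 exceeded those of Col1a1, Col1a2 and Col3a1, and mesenchymal in the opposite case. This gave 98, 45, 532 and 230 epithelial cells and 135, 31, 283 and 273 mesenchymal cells at the 4 stages in order, with 3 cells in neither class. The median depth was 18967.5 to 26725 UMIs in the epithelial cells and 16438 to 24376 UMIs in the mesenchymal cells of the embryonic stages, against 9973 and 8743 at P0. No kept barcode was shared between libraries. Ptprc, which encodes CD45, was at 0 in every kept cell of the 3 embryonic stages, and at P0 it had 1 UMI in epithelial cells and 10 in mesenchymal cells. Levels are the summed UMIs of a class as CPM, counts scaled to a common total of all UMIs in that class, with exact 95% Poisson intervals, and ratios carry exact 95% conditional binomial intervals. These intervals cover counting error only, and since each stage has 1 library no p-value was computed.

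Cd74 was found mostly in the epithelial class of the embryonic stages, which keeps skin cells. In epithelial cells it stood at 20.6 CPM (interval 14.8 to 27.8), 55.8 (43.6 to 70.3), 59.8 (55.9 to 64.0) and 3.82 (1.83 to 7.03) from the earliest to the latest stage. Behind these levels lay 42, 71, 855 and 10 UMIs. In mesenchymal cells Cd74 had 1, 0, 8 and 0 UMIs, with upper limits of 2.31, 4.40, 2.17 and 1.47 CPM. The 3 embryonic epithelial intervals lay above all of these limits, while that of P0 epithelium lay above the P0 limit only. The epithelial level was 49.5 times the mesenchymal at E13.5 (8.42 to 2003) and 54.3 times at E15.5 (27.4 to 126). Against a floor of 3 counts per class, it was at least 15.6-fold higher at E14.5, with an exact lower limit of 12.3, and at least 3.20-fold higher at P0, with a lower limit of 2.15. The P0 bound rested on 1 cell, without which the P0 level was 1.17 CPM, at the floor. With every cell thinned, that is, with UMIs drawn at random to 5000 per cell, the E15.5 difference was 4.48 on the log2 scale, against 5.76 at full depth.

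At full depth the order of the epithelial stages was E15.5, E14.5, E13.5 and P0. After thinning E14.5 came first, at 84.4 CPM against 63.2 at E15.5, with E13.5 at 28.6 and P0 at 1.74. The thinned E14.5 level rested on 16 cells with Cd74. The intervals of the thinned share of cells with Cd74 overlap, at 21.9% to 51.2% for E14.5 and 19.2% to 26.5% for E15.5. No order of these 2 stages was therefore read from the thinned levels. The neighbours E15.5 and E14.5 did not differ beyond counting error at full depth, at a ratio of 1.07 (0.841 to 1.39). E14.5 was 2.71 times E13.5 (1.83 to 4.07), and P0 was 0.186 times E13.5 (0.0832 to 0.377) and 0.0639 times E15.5 (0.0306 to 0.118). The part of skin cells in these stage differences was not tested. The P0 level rested on 3 cells. The deepest P0 cell, with 53855 UMIs, held 7 of the 10 Cd74 UMIs. It also held all 3 H2-Aa and both H2-Eb1 UMIs of the P0 epithelium, 3 of its 5 H2-Ab1 UMIs, and 1 UMI each of the leukocyte markers Ptprc, Tyrobp, Fcer1g, Aif1 and Cd52, beside 528 UMIs of the 5 epithelial markers. Without that cell no fold over the P0 mesenchyme could be given, and the P0 to E13.5 difference was -4.13 on the log2 scale in place of -2.43. With every cell thinned it was -4.04.

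Depth differs between stages, so the share of cells with a Cd74 UMI was read from the thinned cells. The thinned share in epithelial cells was 7.14%, 35.6% and 22.7% at the embryonic stages in order and 0.870% at birth. In mesenchymal cells, which served as a background for comparison, it was 1.41% at E15.5 and 0 of 135, 0 of 31 and 0 of 273 cells at E13.5, E14.5 and P0. Whether these mesenchymal counts came from free RNA was not tested. The exact upper limits of these counts of 0 are 2.70%, 11.2% and 1.34% of cells. Cd74 was therefore above the mesenchymal background at the 3 embryonic stages, and at P0 the share did not stand apart from what a count of 0 allows. Most positive cells of each stage held a single Cd74 UMI after thinning. At full depth 274 of 532 E15.5 epithelial cells (51.5%, exact binomial interval 47.2 to 55.8) had Cd74, 124 had 3 or more UMIs, 9 had 10 or more, and the highest had 19. The 53 cells richest in Cd74 held 46.3% of its UMIs.

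**Figure D1:**
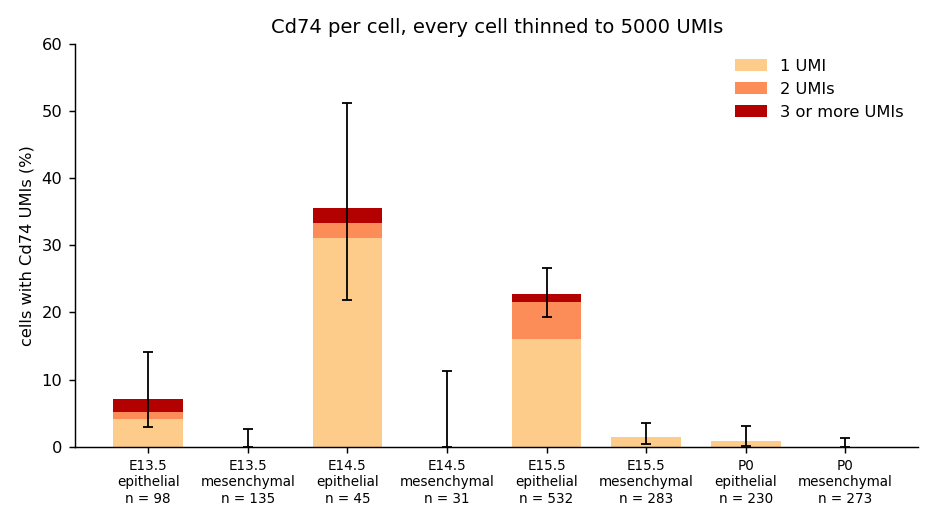
Share of cells with Cd74 (percent, y axis) in epithelial and mesenchymal cells of each stage after every cell was thinned to 5000 UMIs, split by the number of Cd74 UMIs, with exact 95% binomial intervals on the total. The 3 embryonic epithelial classes reach 7.14%, 35.6% and 22.7%, against at most 1.41% in any mesenchymal class and 0.870% in P0 epithelium.

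H2-Aa, H2-Ab1 and Ciita were not detectably higher in the E15.5 tissue that held Cd74. H2-Aa, the alpha chain of I-A, had 0 UMIs in the 532 E15.5 epithelial cells, against a floor of 0.210 CPM for 3 counts in that class. H2-Ab1, the beta chain of I-A, had 4 UMIs there (0.280 CPM, 0.0762 to 0.717) and 5 in mesenchymal cells of that stage (0.689 CPM, 0.224 to 1.61). Ciita had 0 UMIs in the E15.5 epithelium and 1 in the E15.5 mesenchyme. The counts of these 3 genes were thus within or near the floor in both tissues, and neither tissue stood above the other.

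H2-Eb1, the beta chain of I-E, was the class II chain with the most epithelial UMIs. It had 23 UMIs in 20 E15.5 epithelial cells (1.61 CPM, 1.02 to 2.41) and 0 in E15.5 mesenchymal cells, at least 3.89-fold higher with a lower limit of 2.92. After thinning only 6 epithelial cells kept an H2-Eb1 UMI, and the bound fell to 0.09 on the log2 scale. As background, the C57B6 strain carries a defect in the I-E alpha gene, so that the I-E beta chain lacks its partner. At the other stages the 3 chains were sparse. H2-Aa had 0, 0 and 3 UMIs in epithelial cells at E13.5, E14.5 and P0, H2-Ab1 had 2, 2 and 5, and H2-Eb1 had 0, 0 and 2. In mesenchymal cells of those stages H2-Aa had 1, 0 and 0 UMIs, H2-Ab1 3, 0 and 3, and H2-Eb1 none. Ciita had 1 UMI in E14.5 epithelium and 1 in P0 mesenchyme, and none in the other 4 classes of those 3 stages.

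Among the E15.5 epithelial cells, the 274 Cd74-positive cells were compared with the 258 that had no Cd74 UMI, at median depths of 24302.5 and 25456 UMIs. H2-Eb1 was found in 8 positive cells (2.92%, 1.27 to 5.67) and 12 negative cells (4.65%, 2.43 to 7.98). H2-Ab1 was found in 4 positive cells and 0 negative cells, and H2-Aa in none of either. Any class II chain was found in 12 positive cells (4.38%, 2.28 to 7.53), 12 negative cells (4.65%, 2.43 to 7.98) and 6 of 283 mesenchymal cells (2.12%, 0.782 to 4.56). The intervals of these 3 shares overlap, so class II chains were not detectably more frequent in Cd74-positive cells. Ciita was found in 0 of 274 positive cells, which has an exact upper limit of 1.34% of cells with a UMI and sets no limit on cells expressing it. The 124 cells with 3 or more Cd74 UMIs held no Ciita, and 9 of them (7.26%, 3.37 to 13.3) had a class II chain, which took in all 4 cells with H2-Ab1. The 9 cells with 10 or more Cd74 UMIs had neither. After thinning, 2 of 121 positive cells (1.65%, 0.201 to 5.84) and 5 of 411 negative cells (1.22%, 0.396 to 2.82) had a class II chain.

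The class I chains were distributed otherwise. H2-D1 was found in 236 Cd74-positive cells (86.1%, 81.5 to 90.0), 148 negative cells (57.4%, 51.1 to 63.5) and 39 mesenchymal cells (13.8%, 9.99 to 18.3). H2-K1 was found in 190, 97 and 32 cells (69.3%, 37.6% and 11.3%), and B2m in 245, 190 and 232 cells (89.4%, 73.6% and 82.0%). Each of the 3 was more frequent in Cd74-positive than in Cd74-negative cells beyond counting error. At equal depth, thinned H2-D1 was 2.22 times (1.76 to 2.79), H2-K1 2.35 times (1.76 to 3.12) and B2m 1.68 times (1.33 to 2.13) as high in the 121 cells that kept a Cd74 UMI as in the other 411. Psmb8 was found in 24 positive cells (8.76%, 5.69 to 12.8) and 5 negative cells (1.94%, 0.632 to 4.46), apart beyond counting error at full depth. Its thinned ratio of 2.43 (0.607 to 8.88) was not resolved. Tap1 was found in 22 positive cells (8.03%, 5.10 to 11.9) and 35 negative cells (13.6%, 9.63 to 18.4), with overlapping intervals. Its thinned ratio of 1.70 (0.523 to 4.89) ran the other way and was not resolved. All these cells share 1 library, and the ratios describe it. Skin cells were kept in both epithelial groups, and their part in the ratios was not tested.

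**Figure D2:**
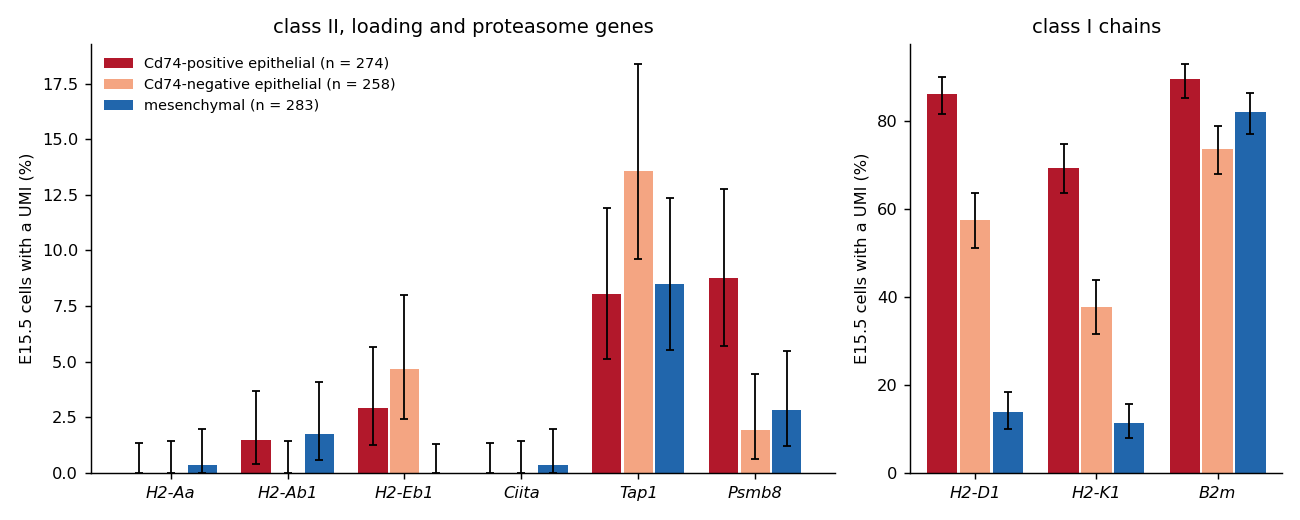
Share of E15.5 cells with a UMI of each gene (percent, y axis; the panels have different scales) in Cd74-positive epithelial cells, Cd74-negative epithelial cells and mesenchymal cells, with exact 95% binomial intervals. H2-D1 and H2-K1 step down across the 3 classes, from 86.1% to 57.4% and 13.8% for H2-D1, while H2-Aa and Ciita are at 0 in both epithelial classes.

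Leukocyte markers were read beside these values, since professional antigen-presenting cells make the same genes. Of 16 immune markers, 11 had a UMI in E15.5 epithelial cells, and Ptprc, Tyrobp, Laptm5, C1qb and Cd207 were at 0. The list summed to 225 UMIs, of which Cd68, a lysosomal gene not limited to leukocytes, gave 157 and Cd79a 36. The list was seen in 34.7% of Cd74-positive cells, 29.5% of Cd74-negative cells and 22.3% of mesenchymal cells, with up to 4 UMIs in any cell. When cells with a UMI of the immune list were left out, the E15.5 epithelial to mesenchymal difference of Cd74 was 5.54 on the log2 scale, against 5.76 with them, and 3.91% of Cd74-positive cells had a class II chain.

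The same E15.5 library held Cd74-rich barcodes that failed the cell filter, and these looked different. Among its 1826 barcodes outside the filter, 74 had 10 or more Cd74 UMIs, with a median of 649 UMIs in all and 73 of them under 5000. They held 1774 Cd74 UMIs with 556 of H2-Ab1, 326 of H2-Aa, 24 of H2-Eb1 and 4 of Ciita, and 73 of the 74 had a class II chain. They also held 1441 UMIs of Lyz2 and 258 of C1qa, macrophage genes, and Ptprc in 17 barcodes. Class II chains amounted to 51.1 UMIs per 100 Cd74 UMIs in them (47.1 to 55.4), against 3.16 in the kept epithelial cells (2.07 to 4.63). The order of the chains also differed, with H2-Ab1 far above H2-Eb1 in these barcodes and H2-Eb1 above H2-Ab1, 23 to 4 UMIs, in the kept epithelium. The 8 Cd74 UMIs of the kept mesenchymal cells came with 6 class II UMIs, of which 5 were H2-Ab1. The part of free RNA from such barcodes in the mesenchymal counts was not tested.

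Class I genes followed a different course, and the 2 tissues did not share it. H2-D1, a classical heavy chain, stood at 72.5 CPM (61.3 to 85.2), 54.2 (42.2 to 68.6), 118 (113 to 124) and 203 (187 to 222) in epithelial cells from E13.5 to P0. In mesenchymal cells it stood at 4.57 (2.28 to 8.17), 3.58 (0.738 to 10.5), 9.78 (7.64 to 12.3) and 230 CPM (212 to 250). The mesenchyme was thus low at all 3 embryonic stages and slightly above the epithelium at birth. The epithelial to mesenchymal ratio of H2-D1 was 15.9 (8.62 to 32.5), 15.1 (4.97 to 75.2) and 12.1 (9.53 to 15.6) before birth and 0.883 (0.783 to 0.995) at P0. In the E15.5 mesenchyme 22 of its 71 H2-D1 UMIs came from a single cell.

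H2-K1, the other classical heavy chain, behaved likewise. It stood at 25.0 CPM (18.6 to 32.8), 34.6 (25.1 to 46.4), 74.7 (70.3 to 79.3) and 165 (150 to 181) in epithelial cells and at 8.30 (5.07 to 12.8), 11.9 (5.72 to 21.9), 7.16 (5.35 to 9.39) and 167 (152 to 184) in mesenchymal cells. Its ratio between the tissues was 3.01 (1.76 to 5.33), 2.90 (1.44 to 6.45), 10.4 (7.90 to 14.1) and 0.987 (0.861 to 1.13). Over the longest transcripts H2-D1 and H2-K1 are 91.6% identical in 1579 aligned bases, so their reads could be confused. Only 2 of the 451 stretches of 50 bases in the last 500 bases of H2-D1, where 3′ reads fall, also occur in those of H2-K1.

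B2m, the light chain of every class I molecule, was present in both tissues throughout. In epithelial cells it stood at 50.4 CPM (41.2 to 61.2), 102 (85.3 to 121), 114 (108 to 119) and 133 (120 to 148), and in mesenchymal cells at 85.1 (73.9 to 97.6), 112 (90.6 to 137), 91.3 (84.5 to 98.5) and 442 (416 to 469). The tissue ratio of B2m lay below 1 at E13.5 (0.593, 0.463 to 0.755) and its interval held 1 at E14.5 (0.910, 0.693 to 1.20). The E15.5 ratio was 1.25 (1.14 to 1.37) and the P0 ratio 0.302 (0.267 to 0.341). The embryonic mesenchyme therefore held the light chain while its heavy chain counts were low. After thinning, the share of mesenchymal cells with a B2m UMI was 32.6%, 38.7%, 37.5% and 82.8%, against 65.2%, 93.5%, 82.0% and 91.9% at full depth.

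**Figure D3:**
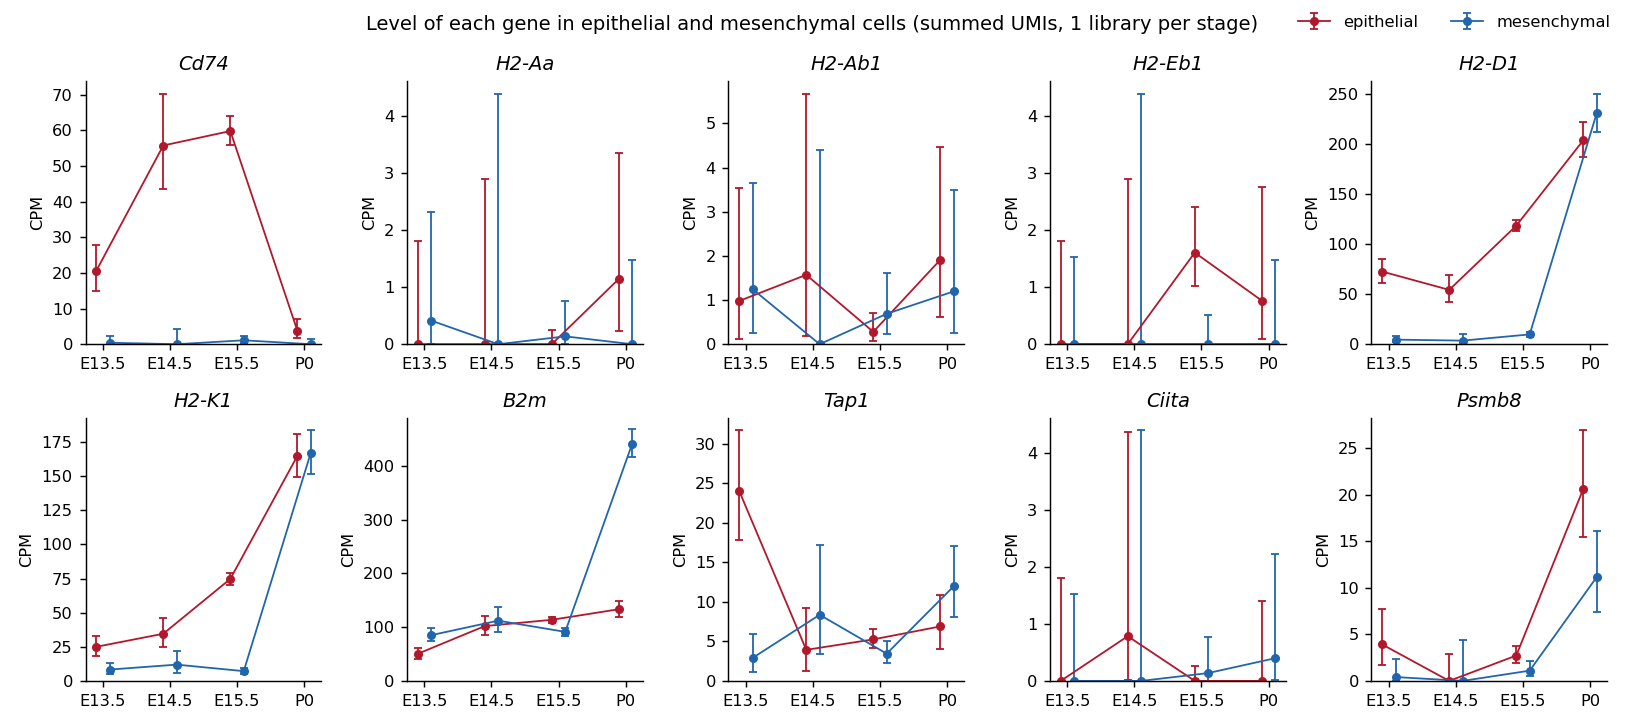
Level (CPM, y axis, a scale of its own in each panel) of the 10 genes in epithelial and mesenchymal cells at the 4 stages, 1 library each, with exact 95% Poisson intervals and lines that only link the stages. Cd74 peaks in embryonic epithelium and drops to 3.82 CPM at P0, whereas H2-D1, H2-K1 and B2m are highest at P0 in both tissues.

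From E13.5 to P0 the 3 class I chain genes were higher in both tissues, and the ratio was larger in the mesenchyme for each. H2-D1 was 2.81 times as high at P0 in epithelium (2.34 to 3.39) and 50.5 times in mesenchyme (28.0 to 102). H2-K1 was 6.60 times as high in epithelium (4.93 to 9.005) and 20.1 times in mesenchyme (12.9 to 33.3), and B2m 2.65 times (2.12 to 3.33) and 5.19 times (4.47 to 6.05). On the log2 scale the H2-D1 difference in epithelium was 1.49, and 2.19 with every cell thinned, and the H2-K1 difference in mesenchyme was 4.33, and 5.22 thinned. Most of the mesenchymal difference lay between E15.5 and P0, where the ratios were 23.6 (18.4 to 30.6) for H2-D1, 23.3 (17.5 to 31.8) for H2-K1 and 4.84 (4.39 to 5.34) for B2m. Between E13.5 and E15.5 the mesenchymal ratio was 2.14 (1.13 to 4.48) for H2-D1, 0.862 (0.506 to 1.53) for H2-K1 and 1.07 (0.916 to 1.26) for B2m. In the epithelium the corresponding E13.5 to E15.5 ratios were 1.63 (1.38 to 1.94), 2.99 (2.26 to 4.04) and 2.25 (1.85 to 2.78), so that each of the 3 was already higher at E15.5. In the epithelial class all 4 suprabasal epidermis markers were found at each stage, at a summed level of 104, 442, 1168 and 16.1 CPM. The sum was thus lowest at P0, where the 3 class I chain genes were highest. It does not count skin cells that lack these markers. The part of skin cells in these differences was not tested. Fewer cells with the transcript and fewer transcripts per cell both lower such sums. The thinned share of cells with H2-D1 went with the level, at 1.48%, 3.23%, 5.30% and 58.2% in mesenchyme and 17.3%, 17.8%, 39.1% and 56.1% in epithelium.

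The P0 mesenchymal class also held transcripts of immune and red cell genes. It held 787 UMIs of Cd3e in 84 cells, with 2 of Cd3d, 20 of Cd3g, 10 of Ptprc and 193 of Lyz2. Globin genes reached 10369 CPM in 58 cells. Which cells these transcripts came from was not tested. A UMI of the immune list was found in 108 cells, of which 84 had Cd3e. Without the cells that had a UMI of the immune list, the P0 to E13.5 difference in mesenchyme was 5.82 for H2-D1, 4.53 for H2-K1 and 2.50 for B2m on the log2 scale, against 5.66, 4.33 and 2.38 with them. Cells with globin UMIs were not left out on that ground, and the part of other cells in the class I difference was not tested. With only cells that had a UMI of Ptprc, Tyrobp, Fcer1g, Laptm5 or Coro1a left out, a choice made after the data were seen, the values were 5.63, 4.33 and 2.37.

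The loading and processing genes were sparser. Tap1, the peptide transporter subunit, was highest in E13.5 epithelium, at 24.0 CPM (17.8 to 31.7), and stood at 3.93 (1.28 to 9.16), 5.25 (4.13 to 6.58) and 6.88 (4.08 to 10.9) in the later epithelial classes. In mesenchymal cells Tap1 stood at 2.91 (1.17 to 5.99), 8.35 (3.36 to 17.2), 3.44 (2.23 to 5.08) and 11.96 (8.07 to 17.1). Its tissue ratio was 8.26 at E13.5 (3.72 to 21.6), and the intervals held 1 at E14.5, E15.5 and P0. Its P0 to E13.5 ratio was 0.287 in epithelium (0.157 to 0.501) and 4.12 in mesenchyme (1.77 to 11.1). After thinning the log2 differences were -1.55 (-3.10 to -0.06) and 0.86 (-1.06 to 3.34), so that the mesenchymal one was not resolved at equal depth. Psmb8, the inducible proteasome subunit, had 8, 0, 39 and 54 UMIs in epithelium and 1, 0, 8 and 28 in mesenchyme. At P0 it stood at 20.7 CPM (15.52 to 26.9) in epithelium and 11.2 (7.42 to 16.1) in mesenchyme, a ratio of 1.85 (1.15 to 3.03). In epithelium Psmb8 was 5.27 times as high at P0 as at E13.5 (2.49 to 12.8) and 7.57 times as high as at E15.5 (4.92 to 11.7). In mesenchyme it was 10.1 times as high as at E15.5 (4.50 to 25.7).

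These differences were set against all genes by a fixed size, a ratio of 2-fold or more with 10 CPM added to both sides, among genes with 10 CPM or more in either class. At E13.5, 3 of the 5 genes of the set that reached this level were higher in epithelium, namely Cd74, H2-D1 and Tap1, against 6.5% of 9290 genes, and 0 were lower, against 1129 genes. At E14.5, 3 of 4 were higher, namely Cd74, H2-D1 and H2-K1, against 9.24% of 9783 genes, and 0 lower, against 1321 genes. The same 3 of 4 were higher at E15.5, against 9.8% of 8726 genes, with 0 lower against 982 genes. At P0, 0 of 5 were higher in epithelium, against 15% of genes, and 1 was lower, B2m, against 13.7%. Between P0 and E13.5 in epithelium, H2-D1, H2-K1, B2m and Psmb8, 4 of 6, were higher at P0, against 11.9% of genes, and 2, Cd74 and Tap1, were lower, against 11.2%. In mesenchyme the same 4 of 5 were higher, against 10.5% of 9344 genes, and 0 lower, against 1906 genes. The median log2 difference from E13.5 to P0 was 1.19 for the 6 genes of the set in epithelium and -0.13 for all genes. In mesenchyme it was 2.25 for 5 genes and -0.44 for all genes. Many genes passed the filter only through the class where they were high. Those called higher at E13.5 and E15.5, and Cd74 and H2-D1 at E14.5, reached 10 CPM in epithelium only. In mesenchyme H2-D1, H2-K1, Tap1 and Psmb8 reached it at P0 but not at E13.5. In epithelium Psmb8 reached it at P0 but not at E13.5, and Cd74 and Tap1 at E13.5 but not at P0. The genes were also selected with results known, so the counts and medians only describe the set, and no excess over other genes was read from them.

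The rest of the pathway was read from a list of 52 other genes, of which 31 to 36 reached the level in a comparison. Over the 4 stages in order, 2, 4, 6 and 2 of them were 2-fold or more higher in epithelium, of 31, 32, 32 and 36 at the level, and 2, 2, 2 and 6 lower. The shares over all genes were 6.5%, 9.24%, 9.8% and 15% higher, and 1129 of 9290, 1321 of 9783, 982 of 8726 and 1188 of 8688 genes were lower. At these counts a few genes decide whether the list lies above or below a share, so no difference was read from them. From E13.5 to P0, 7 of 32 were higher and 3 lower in epithelium, and 12 of 35 were higher and 5 lower in mesenchyme. All genes gave 11.9% higher and 11.2% lower in epithelium and 10.5% and 20.4% in mesenchyme. The counts of the list are small and are given beside these shares as a description. The median log2 difference of the list was 0.34 in epithelium and 0.46 in mesenchyme. Among other class I heavy chains, H2-Q4 and H2-T23 were higher in epithelium at each embryonic stage. H2-Q4, a class Ib heavy chain of the Qa region, stood at 25.0, 20.4, 49.8 and 38.2 CPM in epithelium and 6.64, 3.58, 7.99 and 51.4 in mesenchyme. H2-T23, the heavy chain of Qa-1 that binds the inhibitory receptor of natural killer cells, stood at 22.5, 19.6, 33.6 and 167 CPM in epithelium and 2.91, 2.39, 5.10 and 67.4 in mesenchyme. Its ratio from E13.5 to P0 was 7.42 (5.47 to 10.3) in epithelium and 23.2 (11.0 to 58.6) in mesenchyme. Unlike H2-D1, H2-T23 stayed higher in epithelium at P0, at a ratio of 2.48 (2.07 to 2.98). H2-Q7 took another course. It was lower in epithelium than in mesenchyme at E15.5, with 8 against 19 UMIs, and 10.8 times as high in P0 as in E13.5 mesenchyme (4.35 to 34.4).

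In the loading group, tapasin (Tapbp), which holds the empty class I molecule to the transporter, was 4.28 times as high at P0 as at E13.5 in epithelium (2.91 to 6.50) and 15.2 times in mesenchyme (8.04 to 32.3). Erap1, which trims peptides in the endoplasmic reticulum, was 8.79 times (4.27 to 21.0) and 17.8 times (4.58 to 152) as high. Both were also higher in epithelium at E15.5, Tapbp by 4.09 times (3.29 to 5.14) and Erap1 by 4.64 times (3.16 to 7.07). The general chaperones calreticulin (Calr) and calnexin (Canx) and the disulfide isomerase Pdia3 were not 2-fold apart between P0 and E13.5. Nor were the immunoproteasome subunit Psmb10 and the activator subunits Psme1 and Psme2. The constitutive proteasome subunits Psmb5, Psmb6 and Psmb7 were lower in P0 mesenchyme, at 0.454 (0.378 to 0.545), 0.402 (0.344 to 0.468) and 0.350 (0.289 to 0.423) of the E13.5 level. They were 3 of the 12 genes of this group at the level, and 20.4% of all genes were lower there. Psmb8, which takes the place of Psmb5, was higher. The immunoproteasome subunit Psmb9 had 1 UMI in E13.5 and 5 in P0 mesenchyme. No exchange of subunits was read from these values. Nlrc5, the class I coactivator, had at most 12 UMIs in any class.

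Of 9 other genes of the class II path, at most 2 reached the level, cathepsin L (Ctsl) and the lysosomal thiol reductase Ifi30. H2-DMa, which with H2-DMb1 exchanges the invariant chain fragment for peptide, had 22 UMIs in E15.5 epithelium and 36 in E15.5 mesenchyme, a ratio of 0.310 (0.174 to 0.542). H2-DMa was thus the lower in the tissue that held Cd74. Cathepsin S (Ctss), which cuts the invariant chain in professional antigen-presenting cells, had at most 1 UMI in any class. Ctsl, which does this in thymic epithelium and is a general lysosomal protease, was 2.90 times as high at P0 in epithelium (2.62 to 3.22) and 7.68 times in mesenchyme (6.89 to 8.58). The subunits of the RFX and NF-Y complexes that bind the X and Y boxes were present in both tissues, and Rfxap, Nfyc and Nfyb were lower at P0. Rfxap and Nfyc stood at 0.367 (0.268 to 0.499) and 0.295 (0.209 to 0.410) of their E13.5 levels in epithelium, and Nfyb and Nfyc at 0.313 (0.228 to 0.424) and 0.353 (0.238 to 0.515) in mesenchyme.

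Of the interferon gamma route, Jak2, a receptor kinase, was 4.37 times as high at P0 as at E13.5 in epithelium (2.70 to 7.43) and 5.37 times in mesenchyme (3.77 to 7.85). Irf1, an interferon-induced factor that acts on class I promoters, was lower in epithelium at E15.5. It stood at 11.4 CPM in E15.5 epithelium and 53.6 in mesenchyme, a ratio of 0.213 (0.176 to 0.256). Irf8, a factor of myeloid and B cells, reached 47 UMIs in P0 mesenchyme against 5 at E13.5. On the side of Cd74 as a receptor, its ligand Mif was 3.04 times as high in epithelium as in mesenchyme at E15.5 (2.92 to 3.17), and its signalling partner Cd44 was 0.281 times as high (0.256 to 0.309). Cd44 was also the gene of the list with the largest epithelial difference from E13.5 to P0, at 42.1 times (20.2 to 105).

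**Figure D4:**
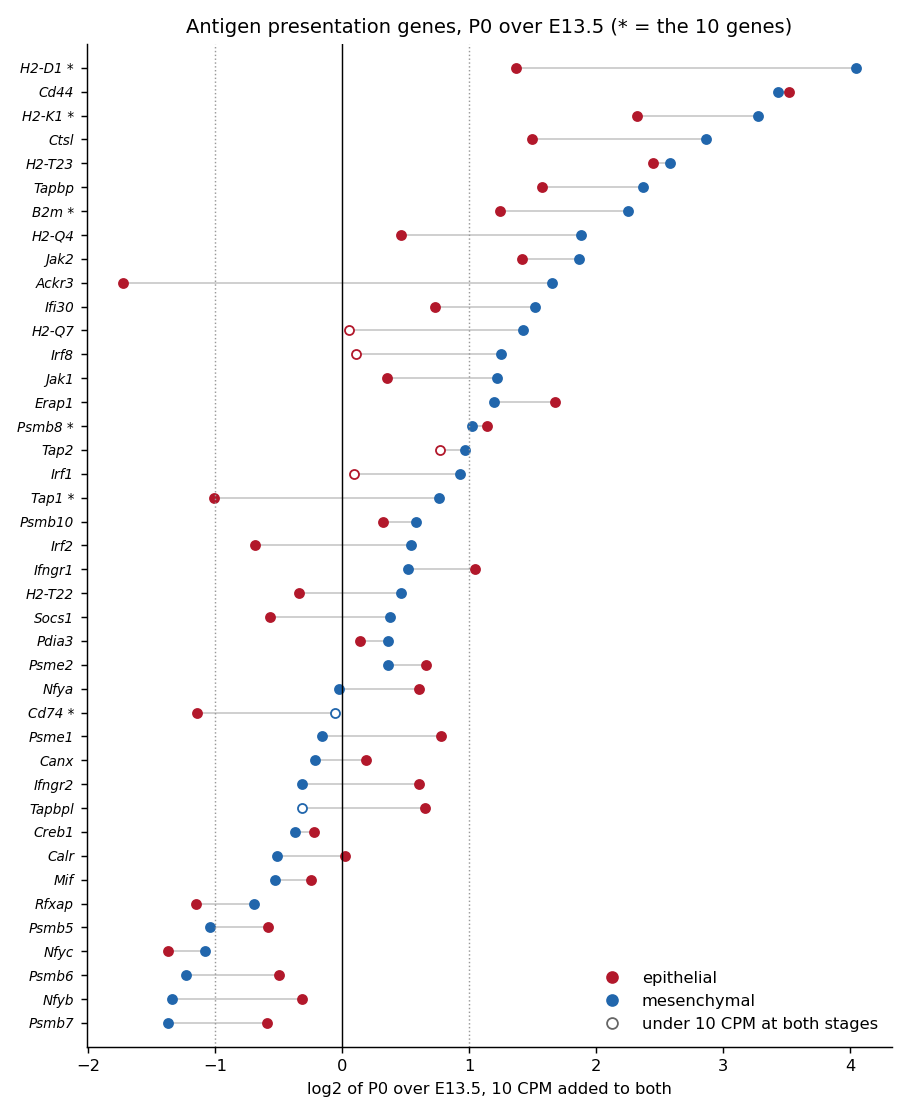
Log2 of the P0 over the E13.5 level with 10 CPM added to both (x axis) for the pathway genes with 10 CPM or more at either stage in a tissue, apart from 1 that is not reported here, in epithelial and mesenchymal cells, with the 2-fold limits dotted and open points for genes under 10 CPM at both stages. H2-D1 lies farthest to the right in mesenchyme, and Cd74 and Tap1 lie beyond the lower limit in epithelium.

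Within the E15.5 epithelium, Cd74 was not spread evenly. Cells were grouped by thinned UMIs into those with 2 or more of Krt1 and Krt10 (keratins of suprabasal epidermis) and, among the rest, those with Anxa1 only, Cxcl14 only, both or neither, where Anxa1 marks the luminal side and Cxcl14 the basal side of the rudiment. These are ranges of cells and not cell types, and they may hold skin cells. The 4 suprabasal epidermis markers summed to 1604 CPM with Anxa1 only and 171 with Cxcl14 only. Over all E15.5 epithelial cells Krtdap gave 12177 of their 16694 UMIs, and the paper also places Krtdap in its luminal-like cluster. The sum therefore does not tell skin cells from luminal-side cells. Cd74 stood at 15.54 CPM (8.49 to 26.1) in the 32 keratin cells, 41.4 (35.0 to 48.6) in the 124 cells with Anxa1 only, 47.7 (39.1 to 57.7) in the 77 with both, 72.1 (64.4 to 80.4) in the 178 with Cxcl14 only and 84.8 (74.9 to 95.7) in the 121 with neither. The Anxa1-only cells held 0.574 times as much Cd74 as the Cxcl14-only cells (0.470 to 0.6998), or -0.80 on the log2 scale. After thinning this difference was -0.12 (-0.78 to 0.53), so that it was not resolved at equal depth, whereas the thinned share of cells with Cd74 was 14.52% against 23.03%. The keratin cells were lowest, with 0.183 times the level of the cells with neither (0.0988 to 0.313), from 14 UMIs in 6 cells. Their thinned share, 9.38% (1.98 to 25.0), overlapped that of the cells with neither, 32.2% (24.0 to 41.3).

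The class I genes were also lowest in the keratin cells. Among the other ranges H2-D1 and B2m differed less than Cd74, whereas H2-K1 differed about as much, from 53.1 to 109 CPM. H2-D1 stood at 55.5, 117, 90.9, 124 and 150 CPM in the 5 ranges in the same order, H2-K1 at 27.7, 74.7, 53.1, 71.4 and 109, and B2m at 53.3, 105, 89.6, 137 and 125. Between Anxa1-only and Cxcl14-only cells the ratio was 0.944 (0.829 to 1.07) for H2-D1 and 1.05 (0.886 to 1.23) for H2-K1, neither resolved, and 0.762 (0.669 to 0.868) for B2m. Tap1 was 3.53 times as high in the Anxa1-only cells (1.73 to 7.79). H2-Eb1 had 1, 9, 0, 5 and 8 UMIs in the 5 ranges, and was thus found in 4 of them.

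**Figure D5:**
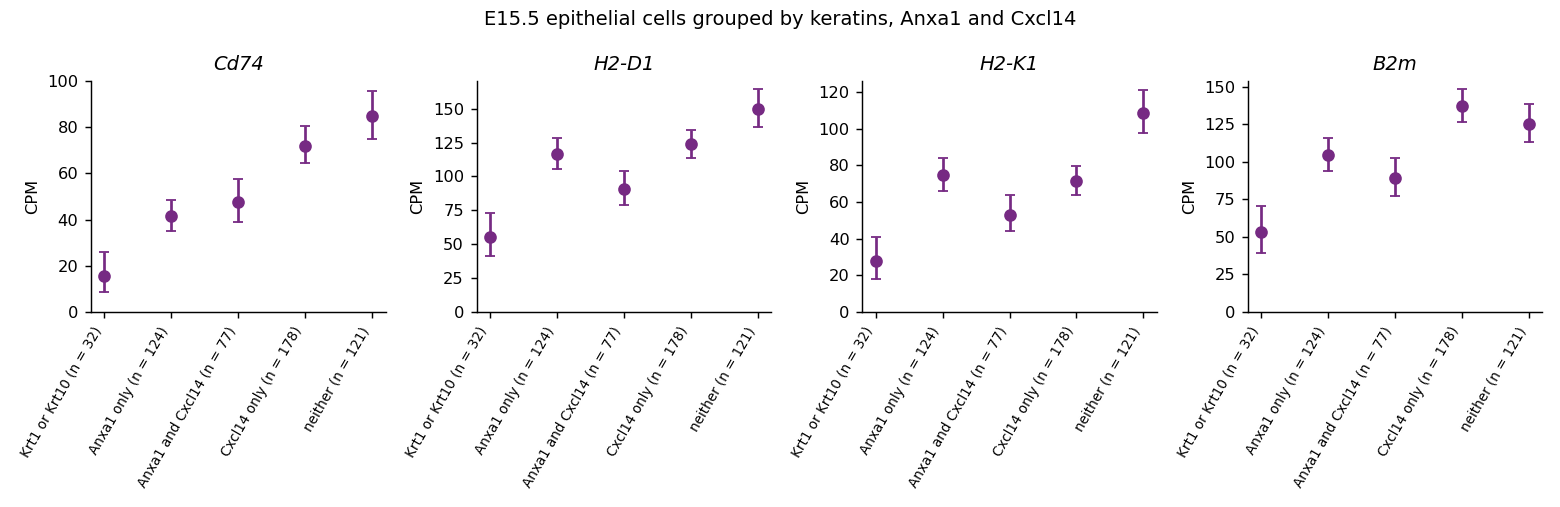
Level (CPM, y axis) of Cd74, H2-D1, H2-K1 and B2m in 5 ranges of E15.5 epithelial cells set by Krt1 and Krt10, Anxa1 and Cxcl14, with exact 95% Poisson intervals and cell numbers on the x axis. All 4 genes are lowest in the 32 keratin cells, and Cd74 is highest, at 84.8 CPM, in cells with neither Anxa1 nor Cxcl14.

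The same split of cells by Cd74 was read against the marker lists at equal depth. In the 121 cells that kept a Cd74 UMI after thinning, the 6 genes of the luminal side summed to 0.374 times their level in the other 411 cells (0.338 to 0.413). Of these, Lgals3 was at 0.0609 (0.0165 to 0.158), Ly6d at 0.153 (0.0751 to 0.278), Krtdap at 0.268 (0.225 to 0.317), Plet1 at 0.326 (0.234 to 0.443), Anxa1 at 0.534 (0.439 to 0.644) and Grhl3 at 0.979 (0.777 to 1.22). The 6 genes of the basal side summed to 0.970 (0.856 to 1.10), which holds 1. The 4 suprabasal genes summed to 0.230 (0.196 to 0.268), and Krtdap belongs to both lists. The epithelial markers were close to equal, at 1.11 (1.07 to 1.15). Cd74-positive cells therefore held fewer transcripts of suprabasal and luminal-side genes and did not differ beyond counting error in those of the basal side. Skin cells were not removed from either group, and Krt1 stood at 3.31 CPM in the positive and 128 CPM in the other cells. The part of skin cells in these ratios was not tested. H2-Q4 was 2.71 times as high in the Cd74-positive cells (1.84 to 3.97) and Irf1 2.32 times (1.12 to 4.67). Creb1 was 1.77 times (1.15 to 2.69) and Tapbp 1.55 times (1.05 to 2.26) as high. Jak1, Erap1 and Mif were at 0.649 (0.494 to 0.842), 0.275 (0.0543 to 0.870) and 0.796 (0.725 to 0.872). The heavy chain H2-T23, unlike H2-Q4, was at 0.534 (0.255 to 1.01), which was not resolved.

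Likeness to Cd74 was measured by the Spearman correlation of thinned counts over the 532 E15.5 epithelial cells, for 5045 genes found in at least 10% of them. The most like were Ifitm3 (rho 0.37), an interferon-induced membrane protein, Cxcl10 (0.26), an interferon-induced chemokine, Fst (0.25), an activin inhibitor, Nfkb1 (0.23), a subunit of NF-kappaB, and H2-Q4 (0.22). The least like were Dsp (-0.19), Rps2 (-0.18) and Dmkn (-0.18). These are correlations across cells of 1 library at low counts and are given as a description.

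At E13.5 H2-D1, H2-K1 and Tap1 split the epithelium differently from Cd74, whereas B2m went with Cd74. The same grouping gave 18 cells with Anxa1 only, 29 with both, 44 with Cxcl14 only, and 7 others. H2-D1 stood at 196 CPM (152 to 250) with Anxa1 only, 84.8 (63.7 to 111) with both and 19.3 (11.5 to 30.5) with Cxcl14 only. Tap1 stood at 47.6 (27.2 to 77.3), 42.4 (27.9 to 61.7) and 5.37 (1.74 to 12.53) CPM, so the high Tap1 of E13.5 epithelium lay in the cells with Anxa1. Suprabasal epidermis markers were also higher there, at 122 CPM (87.5 to 165) with Anxa1 only and 121 (95.4 to 151) with both, against 46.2 (33.4 to 62.2) with Cxcl14 only. Skin cells were not removed from these ranges, and their part was not tested. Cd74 ran the other way, at 5.95 (0.720 to 21.5), 9.42 (3.46 to 20.5) and 31.1 CPM (20.9 to 44.7), the first from 2 UMIs in 1 cell. In Anxa1-only over Cxcl14-only cells the ratio was 10.2 for H2-D1 (5.96 to 18.2), 4.43 for H2-K1 (1.89 to 10.9) and 8.87 for Tap1 (3.104 to 30.9), against 0.191 for Cd74 (0.0221 to 0.755) and 0.470 for B2m (0.214 to 0.926). At E14.5, 35 of the 45 epithelial cells had Cxcl14 only, with Cd74 at 59.97 CPM, and the other ranges were too small to compare.

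At P0 the epithelial cells were grouped by Acta2, a myoepithelial gene, and by Cited1, Prlr and Esr1, genes of hormone-sensing cells. H2-D1 stood at 89.0 CPM (52.7 to 141) in 19 Acta2 cells, 277 (237 to 323) in 40 Cited1, Prlr or Esr1 cells and 192 (172 to 213) in the other 171. H2-K1 stood at 74.2 (41.5 to 122), 227 (191 to 269) and 154 (137 to 174), and B2m was highest in the Acta2 cells, at 213 (154 to 286), 134 (106 to 166) and 125 (109 to 142). Psmb8 was 3.03 times as high in the Cited1, Prlr or Esr1 cells as in the rest (1.69 to 5.43). Of the 10 P0 Cd74 UMIs, 7 lay in the Cited1, Prlr or Esr1 range, all in the deepest cell.

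The P0 mesenchyme was grouped by the higher of 3 pairs of fibroblast genes. In the 68 cells led by Fabp4 and Col15a1, genes of the adipogenic side, H2-D1 stood at 351 CPM (304 to 402), against 197 (168 to 230) in the 94 cells led by Mfap4 and Mgp and 202 (172 to 235) in the 80 led by Pi16 and Dpp4. B2m stood at 618 (556 to 686), 382 (341 to 427) and 388 (347 to 433). The first group stood above the other 2, which did not differ from each other, at ratios of 0.977 (0.782 to 1.22) for H2-D1 and 0.985 (0.840 to 1.15) for B2m. Tap1 was 4.79 times (1.70 to 16.6) and Psmb8 3.99 times (1.502 to 12.4) as high with Fabp4 and Col15a1 as with Mfap4 and Mgp. A tie left 31 cells in no group. Cd74 had 0 UMIs in all of these cells.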

How the data were processed

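Single-cell RNA of mammary rudiments was measured with 10x 3′ v3.1 chemistry, 1 library per stage. The authors deposited raw UMI counts per gene and barcode, made with Cell Ranger on mm10. Per the file headers the version was 6.0.0 at E13.5, E14.5 and P0 and 3.1.0 at E15.5, while the labels list 6.0.0. Doublets were gated out in the sort per the labels, and no doublet caller was run. Kept barcodes had 5000 or more UMIs with no more than 6% of them mitochondrial. Counts were summed per stage and tissue and scaled to CPM. Python 3.11.15 was used with numpy 2.4.6, scipy 1.17.1, matplotlib 3.10.9 and Biopython 1.88, and the steps were tested on simulated data. With 1 library per stage no model across genes was fitted. A gene at 0 was set to a floor of 3 counts in a ratio.

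The 10 genes, the pathway and marker lists and the tests were chosen with earlier results of these data known. Named were the 10 genes, the listed pathway genes 2-fold apart or needed to describe a group, and the 5 genes most and least like Cd74. Irf8, Nlrc5, H2-DMa, Ctss and genes named for not differing came from the same list, of which 1 gene is counted but not reported here. Alternatives changed the minimum of UMIs, the mitochondrial maximum, thinning, the tissue rule, cells with immune UMIs, the mean over cells, the level filter and the CPM added. Leaving out cells with 5 leukocyte genes or the deepest P0 cell, and requiring 3 Cd74 UMIs, were chosen after seeing the data. Promoter windows came from RefSeq on GRCm38.p6 and gene positions from GENCODE on mm10.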

Additional observations from a re-analysis of the deposited data

Results flagged for a closer look

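The tissue ratio of H2-D1 differed between stages, at 15.9, 15.1 and 12.1 in epithelium over mesenchyme of the 3 embryonic stages in order and 0.883 at P0. That of B2m changed side, from 0.593 at E13.5 to 1.25 at E15.5 and 0.302 at P0. With 1 library per stage neither difference between stages was tested.

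E15.5 barcodes outside the cell filter, which the stage and tissue comparisons above do not use, held Cd74 at 364 CPM, class II chains at 164 CPM and Ciita at 0.579 CPM, against 40.0, 1.53 and 0.0464 CPM in the kept cells of that library. The origin of these barcodes was not tested.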

How the results depend on the processing

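Of the values recomputed for 17 results that answer a comparison, 120 stayed and 10 moved. A value stayed when it lay within the counting interval of the reported value. Counts of genes have no interval and stayed when within a fixed factor of the reported count. Among log2 ratios whose reported interval left out 0, none changed sign. On the log2 scale, thinning every cell to 5000 UMIs gave a Cd74 epithelial over mesenchymal difference of 2.68, 2.13 and 4.48 in the embryonic stages in order, against 5.63, 3.96 and 5.76, the first 2 as lower bounds since no mesenchymal UMI was left. Thinning gave 2.19 for H2-D1 from E13.5 to P0 in epithelium, against 1.49, and 5.22 for H2-K1 in mesenchyme, against 4.33. It left a class II chain in 1.65% of Cd74-positive cells, against 4.38%, and a Cd74 difference between Anxa1-only and Cxcl14-only cells of -0.12, against -0.80. A stricter tissue rule raised the E15.5 Cd74 difference to 7.15. Leaving out cells with immune UMIs gave 3.58 for Cd74 at E14.5 and -1.14 for Anxa1-only over Cxcl14-only cells. Apart from the fewer UMIs or cells that each alternative leaves by construction, the cause was not tested. Of the single values recomputed, 799 stayed and 53 moved. The background shares were 3.41% to 10.3% with no filter on the level and 9.84% to 34.6% with 1 CPM added. The mean over cells gives no value for shares or for ratios against 0. No paired analysis was possible because each stage has 1 library. Depth limits class II chains and Ciita, whose counts lay near the floor.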
